A study of Mus musculus with 6 samples.

Results

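The genes described here are imprinted genes of the mouse, those for which the copy inherited from 1 parent is the active one in at least some tissues. They were measured in embryonic stem (ES) cells with and without Dppa4, a gene for a chromatin-associated protein of pluripotent cells. A list of 42 imprinted genes was taken, and each was looked up by its exact symbol in the platform annotation of the arrays. Of these, 40 had at least 1 probe set annotated with that gene alone, 106 probe sets in all, among 45037 probe sets and 18193 genes in the whole table. For summaries a gene was represented by the probe set with the highest mean over the 6 arrays. H19 lay on a probe set shared with Mir675, and Slc22a3 is unnamed in the annotation used.

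RNA from 6 samples was run on Affymetrix arrays. 3 samples came from the Dppa4 knockout line CI#243.12, and 3 from the Dppa4 hemizygous line CI#84.2, called parental in the labels, which itself lacks 1 normal copy. Each group is thus a single cell line, and a difference between the lines that does not come from Dppa4 cannot be told apart from the knockout. Both lines were cultured on feeder cells, which are mouse embryonic fibroblasts, so each value sums RNA of ES cells and of feeders. A lower number of cells of a type and less RNA per cell cannot be told apart in such samples. The labels number the replicates without saying that they were separate cultures, so p-values reflect how far these samples differ, a spread that can be technical. The arrays do not distinguish the 2 parental alleles, and every value is the sum of both.

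Imprinted genes often lie in clusters governed by a DNA region that carries methylation on the maternal or the paternal copy only. The mark is set in germ cells and is kept after fertilisation by the maintenance methyltransferase Dnmt1 and by the zinc finger protein Zfp57, which recruits the corepressor Trim28. Many of the genes regulate fetal and placental growth, and some clusters are controlled through long non-coding RNAs such as Airn and Kcnq1ot1. Cultured ES cells are known for unstable imprints, which can differ between sublines.

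Values are log2 expression after RMA, the authors' normalization, and changes are knockout minus parental on that scale. The targeted gene, Dppa4, had parental values of 10.30, 10.35 and 10.45 and knockout values of 8.68, 8.84 and 8.68, a change of -1.63 (standard error, SE, 0.08, adjusted p = 0.000112, limma). The part of the transcript this probe set reads, and so whether the deletion covers it, was not determined here. A probe set was taken as above background when the higher of its group means exceeded 3.79, the 95th percentile of 78 probe sets for odorant and pheromone receptors. Means of 33 feeder fibroblast markers were 9.70, 9.77 and 9.75 in parental and 9.94, 9.77 and 9.84 in knockout samples (exact permutation p = 0.2). Of the 33 feeder markers 29 were above 0 and 4 below (median change 0.10), against 9090 above 0 of all 18193 genes. By limma 0 were called and 2 had an unadjusted p under 0.05 (6.06%, against 11% of all genes). The groups did not overlap for 3 (9.09%, against 16.3%), and the largest difference was 0.27 for Pdgfrb. Means of 12 ES cell markers were 10.67 to 10.74 in parental and 10.60 to 10.66 in knockout samples, without overlap (exact permutation p = 0.1, the smallest that 3 against 3 can give). Nanog had the largest difference of these (-0.49, adjusted p = 0.122, limma), and the others differed by -0.19 to 0.13. Of the 12 markers 4 were above 0 and 8 below, and 6 had no overlap (50%, against 16.3% of all genes). Markers of other lineages were above background for 6 of 10 of trophoblast, 9 of 12 of endoderm and 5 of 9 of mesoderm and muscle. None was called by limma, and 1, 0 and 1 had an unadjusted p under 0.05. Their mean levels were 4.41 to 4.48 in parental and 4.40 to 4.44 in knockout samples for trophoblast, 4.54 to 4.63 and 4.58 to 4.64 for endoderm, and 4.05 to 4.15 and 4.07 to 4.16 for mesoderm and muscle. Those at or below background were Elf5, Tpbpa, Gata3 and Plac1 of trophoblast and Gata4, Amn and Cubn of endoderm. Of mesoderm and muscle they were Myf5, Myog, Myod1 and Tbx6. The others were above it, with parental means of 7.75 for Tfap2c, 7.76 for Dab2, 5.75 for Des and 5.44 for Eomes. For the rest of these the parental means were 3.84 (Afp) to 5.35 (Hnf4a). Tfap2c differed by -0.36 without overlap (adjusted p = 0.122, limma). Parental replicate 3 and knockout replicate 2 departed from their groups in a like way, with a correlation of 0.497 between their deviations across probe sets above background (0.506 for parental replicate 2 and knockout replicate 3). The main results are also given without the first pair, and no fit left out the second, though its correlation was slightly higher.

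1 imprinted gene passed the test, Slc38a4, and it fell. It encodes a sodium-coupled transporter of neutral amino acids, is expressed from the paternal copy and is prominent in placenta and liver. The remaining 39 measured genes did not pass (adjusted p under 0.05, limma, adjusted over all 45037 probe sets). Over all genes 0.605% were called, 0.0934% higher and 0.511% lower. Of the 106 probe sets, 1 was called, against 0.402% of all probe sets (0.0688% higher and 0.333% lower). At an unadjusted p under 0.05 there were 3 of 40 imprinted genes, 7.5%, against 11% of all genes, and 13 of 106 probe sets against 9.49%. The higher group mean was above background for 32 of the 40, against 73.4% of all genes. The median change of the 40 genes was 0.02, with 22 above and 18 below 0, and that of all genes was 0.00.

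The 2 members with the lowest adjusted p, Slc38a4 and Ppp1r9a, moved in opposite directions, and their RefSeq promoters are shown to let the start regions be compared. Each window covers 250 bases before to 50 bases after an annotated start, in the GRCm38.p6 build, read 5′ to 3′ on the strand of the gene. For each gene the window with the most CG dinucleotides is given, and capitals mark every CG, the dinucleotide that DNA methyltransferases modify. The Slc38a4 window lies at chr15:97055907-97056206 on the minus strand and the Ppp1r9a window at chr6:4903061-4903360 on the plus strand.
Slc38a4: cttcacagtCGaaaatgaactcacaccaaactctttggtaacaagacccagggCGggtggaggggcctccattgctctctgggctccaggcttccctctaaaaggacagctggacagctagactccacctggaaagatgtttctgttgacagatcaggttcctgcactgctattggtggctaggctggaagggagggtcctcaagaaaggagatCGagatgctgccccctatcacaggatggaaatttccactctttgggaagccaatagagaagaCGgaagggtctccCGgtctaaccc
Ppp1r9a: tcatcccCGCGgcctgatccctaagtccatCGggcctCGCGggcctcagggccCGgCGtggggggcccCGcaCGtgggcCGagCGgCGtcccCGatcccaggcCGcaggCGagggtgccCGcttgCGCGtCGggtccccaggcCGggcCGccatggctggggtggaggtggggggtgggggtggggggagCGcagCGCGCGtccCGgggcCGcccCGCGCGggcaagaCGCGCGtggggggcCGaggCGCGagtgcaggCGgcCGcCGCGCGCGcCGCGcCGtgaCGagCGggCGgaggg
The Slc38a4 window held 5 CG, as did the other 2 annotated starts of that gene, and 38.0% of all 32851 windows held fewer. The Ppp1r9a window held 48, more than 98.8% of all windows, while its other start held 10. Promoter windows were found for 35 of the 42 imprinted genes, 53 in all, with a median of 13 CG against 7 in all windows. The letters TGCCGC, the core motif that Zfp57 recognises when methylated, were searched on both strands. They stood in 12 of these 53 windows (22.6%) and in 11.6% of all windows, and in no window of Slc38a4 or Ppp1r9a. Such a match describes the letters only.

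Slc38a4 was represented by 2 probe sets, both above background. On 1448889_at the values were 8.87, 8.45 and 8.70 in parental and 7.95, 7.57 and 7.79 in knockout arrays. All knockout values lay below all parental values, and the knockout signal was 53.5% of the parental signal. The change was -0.90 (SE 0.13, 95% interval -1.21 to -0.60, adjusted p = 0.0359, limma). The call was lost without parental replicate 1 (-0.80, adjusted p = 0.140), without parental replicate 3 (-0.89, adjusted p = 0.140), and without knockout replicate 1 (-0.99, 0.0733), 2 (-0.80, 0.0963) or 3 (-0.91, 0.155). Without both parental replicate 3 and knockout replicate 2 it was -0.79 (adjusted p = 0.310). The other probe set, 1428111_at, read 8.33, 7.99 and 8.28 in parental and 7.74, 7.68 and 7.29 in knockout samples, again without overlap, but its change of -0.63 did not pass (SE 0.14, adjusted p = 0.162). Beside this, the mean of the feeder markers was 9.74 in parental and 9.85 in knockout samples and that of the ES cell markers 10.70 and 10.63, and their part in the result was not tested beyond 1 fit. With the feeder mean as a covariate the change was -1.01 (adjusted p = 0.287), a fit with few degrees of freedom left.

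Slc38a4 was set beside the other members of its transporter family, 9 of 11 of which had a probe set of their own. The neighbouring genes on chromosome 15, Slc38a1 and Slc38a2, also carry neutral amino acids and are not known as imprinted. Slc38a2 differed by -0.03 (adjusted p = 0.960, limma) and Slc38a1 by 0.12 (adjusted p = 0.739). Among the rest the values were 0.22 for Slc38a7, without overlap (adjusted p = 0.510), 0.11 for Slc38a10 and 0.09 for Slc38a5. They were -0.15 for Slc38a6 (adjusted p = 0.794), -0.07 for Slc38a9 and -0.06 for Slc38a3. On the other side of Slc38a4, Amigo2 differed by -0.11 (adjusted p = 0.775) and Pced1b by -0.35, without overlap and in the direction of Slc38a4 (adjusted p = 0.348). Of the 9 measured members of this family 1 was called, Slc38a4, and over all genes 0.605% were called. The groups did not overlap for 2 (22.2%), Slc38a4 and Slc38a7, against 16.3% of all genes.

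**Figure D1:**
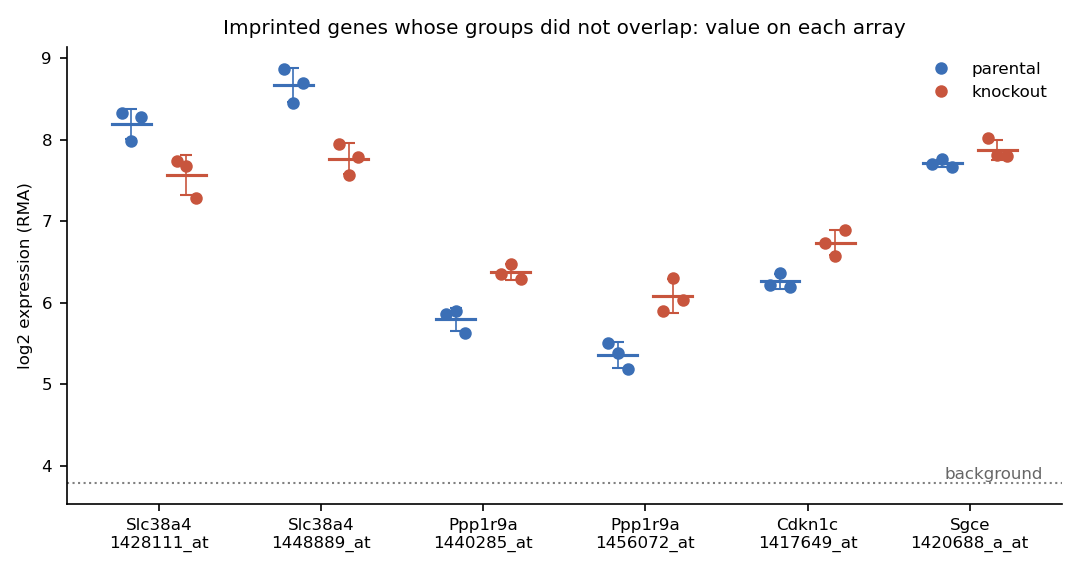
Log2 expression (vertical axis) on each of the 6 arrays for probe sets of imprinted genes whose brightest probe set had no overlap between groups, shown where both group means exceed 5. Points are arrays, horizontal lines group means and bars the SD (n = 3); both Slc38a4 probe sets are lower in knockout samples, and the Ppp1r9a, Cdkn1c and Sgce probe sets are higher.

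Ppp1r9a came next and narrowly missed the threshold. It encodes neurabin, an actin-binding scaffold of protein phosphatase 1, and lies in the Peg10 cluster, where its maternal copy is the more active one in extraembryonic tissue. On 1440285_at the values were 5.86, 5.90 and 5.63 in parental and 6.35, 6.48 and 6.29 in knockout arrays. The groups did not overlap, and the change was 0.58 (SE 0.10, 95% interval 0.35 to 0.80, adjusted p = 0.0605, limma). On 1456072_at the values were 5.51, 5.39 and 5.19 in parental and 5.90, 6.31 and 6.03 in knockout samples, a change of 0.72 (SE 0.13, adjusted p = 0.0679). Both passed in a fit with an intensity trend and a robust prior (adjusted p = 0.0429 and 0.0413). Neither passed with the replicate number as a block (0.131 and 0.199) or with the feeder mean as a covariate (0.401 and 0.121). Without 1 array the adjusted p was 0.122 to 0.206 and 0.122 to 0.22. Without parental replicate 3 and knockout replicate 2 the changes were 0.44 and 0.52 (adjusted p = 0.333 and 0.31). The remaining 3 of its 5 probe sets lay near background; 1458942_at gave 0.23, without overlap, 1457603_at gave 0.07 and 1432037_at gave -0.02.

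The other genes of the Peg10 cluster on chromosome 6 were measured to set Ppp1r9a against its neighbours. Sgce, which encodes epsilon-sarcoglycan and shares a start region with Peg10, read 7.70, 7.76 and 7.67 in parental and 8.02, 7.81 and 7.80 in knockout samples. These groups did not overlap, though they lay close together, and the difference of 0.17 did not pass (SE 0.09, adjusted p = 0.601, limma). It was 0.10 without knockout replicate 1 and 0.04 with the feeder covariate. Peg10, a retrotransposon-derived gene needed in placenta, and Asb4, a gene of ubiquitin ligase adaptors, were at or below background in both groups. Of further genes of the region, Casd1 differed by 0.13, Pon3 by 0.12 and Pon2 by 0.31 (adjusted p = 0.551), and Pon1 and Calcr were at or below background. The second Pon2 probe set above background, 1450686_at, gave 0.26 without overlap (adjusted p = 0.446).

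The Kcnq1ot1 cluster on chromosome 7 held 8 measured genes, of which 0 passed by limma, 1 had an unadjusted p under 0.05 (12.5%, against 11% of all genes), and the median change was -0.08. That 1 gene was Cdkn1c, which encodes the cyclin-dependent kinase inhibitor p57 and restrains growth from the maternal copy. Cdkn1c read 6.22, 6.37 and 6.20 in parental and 6.74, 6.58 and 6.89 in knockout samples. All knockout values were above all parental values, and the change was 0.47 (SE 0.10, 95% interval 0.25 to 0.70, adjusted p = 0.131). Without parental replicate 3 and knockout replicate 2 it was 0.52 (adjusted p = 0.333). Kcnq1ot1, the paternally expressed non-coding RNA that silences the cluster in cis, read 5.48, 5.02 and 5.74 in parental and 5.22, 5.67 and 5.17 in knockout samples. These groups overlapped throughout, and its 6 probe sets, of which 2 were above background, differed by -0.10 to 0.05. The growth-restraining placental gene Phlda2, next to Cdkn1c, differed by -0.24 (adjusted p = 0.731), and the transporter gene Slc22a18 between them by 0.04. Cd81, a tetraspanin gene and the brightest of the cluster, read 11.14, 11.21 and 10.93 in parental and 11.18, 10.90 and 11.09 in knockout samples, with full overlap (-0.04, adjusted p = 0.952). Ascl2, a trophoblast transcription factor gene, gave -0.14, -0.22 and -0.29 on its 3 probe sets, the last at background, none of which passed. The 2 dimmer ones had an unadjusted p of 0.0324 and 0.0445 (limma), the former without overlap between the groups. Tssc4 and the potassium channel gene Kcnq1 gave -0.10 and -0.12.

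**Figure D2:**
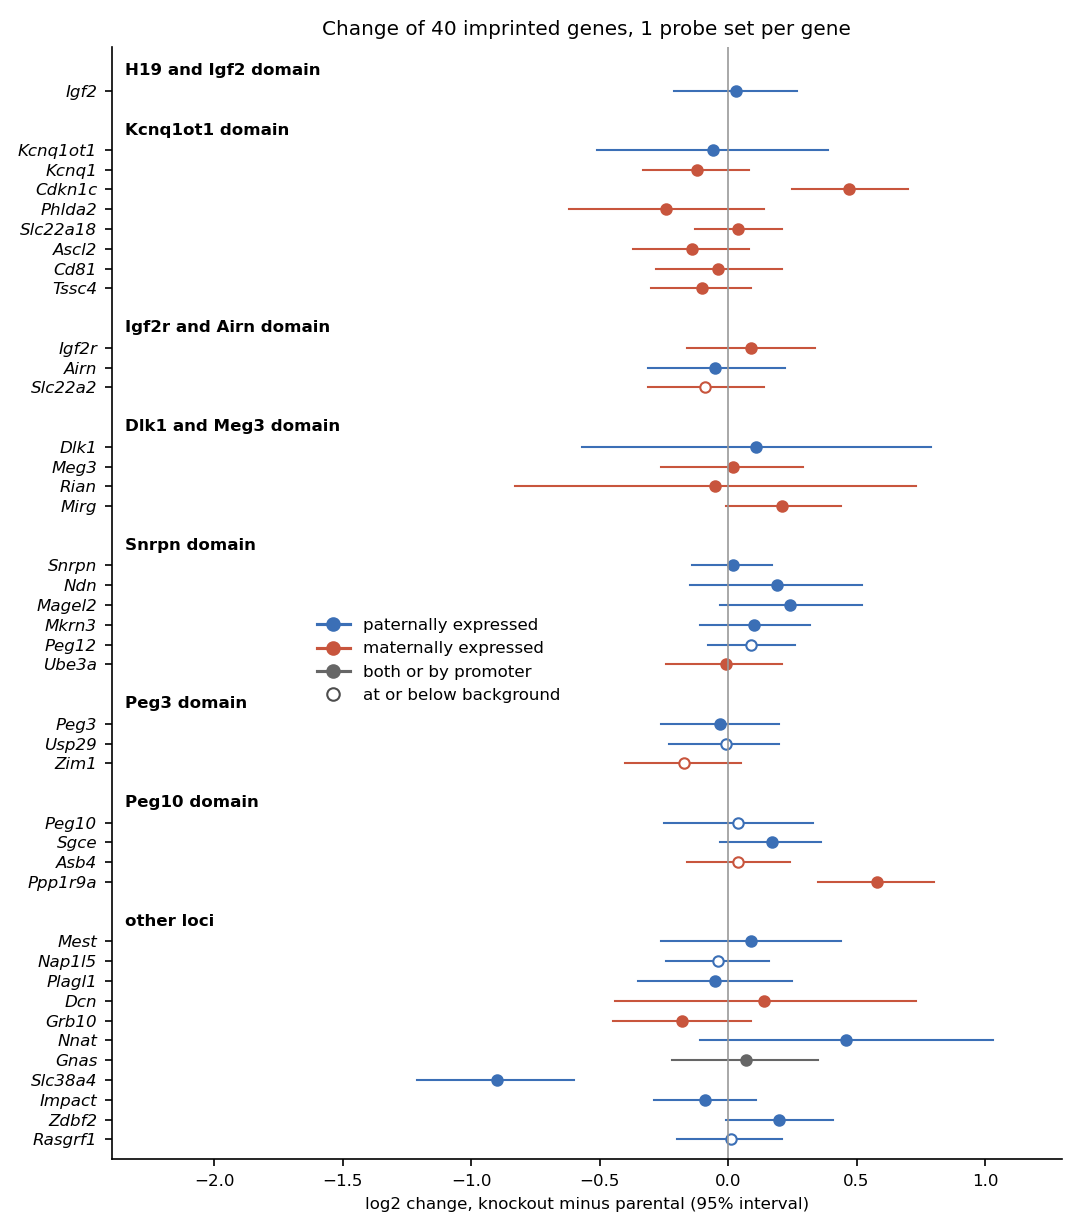
Log2 change (knockout minus parental, horizontal axis) of the 40 measured imprinted genes, grouped by cluster, with the 95% interval of the limma fit. Colour gives the copy known to be expressed and open circles genes at or below background; Slc38a4 stands apart on the left (-0.90), Ppp1r9a (0.58) and Cdkn1c (0.47) lie on the right with intervals that leave out 0, and the other 37 intervals include 0.

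H19 and Igf2 share an imprinting control region on chromosome 7, where the insulator protein Ctcf binds the unmethylated maternal copy. Igf2, the fetal growth factor expressed from the paternal copy, read 10.56, 10.84 and 10.64 in parental and 10.80, 10.55 and 10.79 in knockout samples. The change was 0.03 (SE 0.11, 95% interval -0.21 to 0.27, adjusted p = 0.956, limma). The probe set annotated with both H19 and Mir675, 1448194_a_at, read 10.60, 10.63 and 10.94 in parental and 10.75, 10.93 and 10.64 in knockout samples, a change of 0.05 (SE 0.12, adjusted p = 0.937). H19 is a non-coding RNA that contains the microRNA, and the value cannot be assigned to either alone. Both groups spanned the same range on both probe sets.

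In the Igf2r cluster on chromosome 17, the non-coding RNA Airn is transcribed against Igf2r from the paternal copy. Igf2r, the receptor that clears Igf2, read 9.07, 9.12 and 9.38 in parental and 9.41, 9.30 and 9.13 in knockout samples, with overlap (0.09, adjusted p = 0.860, limma). Its second probe set differed by 0.04. Airn differed by -0.05 on its brightest probe set and by -0.05 to 0.04 over 5, of which 1 was above background. The organic cation transporter gene Slc22a2 was at or below background. A probe set annotated with both Airn and Igf2r, counted for neither, differed by -0.04.

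The Dlk1 and Meg3 cluster on chromosome 12, known to lose expression of its maternal RNAs in some cultured ES cell lines, was expressed in both groups. Meg3, a maternally expressed non-coding RNA, read 10.21, 9.95 and 10.36 in parental and 10.11, 10.34 and 10.12 in knockout samples on 1439380_x_at. Its 11 probe sets were all above background and differed by -0.37 to 0.04, and 0 passed by limma, with 1 at an unadjusted p under 0.05. That 1 was 1436713_s_at, which read 7.61, 7.80 and 7.68 in parental and 7.31, 7.33 and 7.35 in knockout samples. Its groups did not overlap (-0.37, SE 0.08, adjusted p = 0.139), unlike those of the other 10 probe sets of the gene. Rian, the next RNA of the cluster and a host of small nucleolar RNAs, read 9.08, 9.17 and 9.01 in parental and 9.68, 8.10 and 9.33 in knockout samples. Knockout replicate 2 was lowest and knockout replicate 1 highest, so the SD was 0.83 in knockout against 0.08 in parental samples, and the change was -0.05 (adjusted p = 0.982).

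The same order of the knockout samples was seen on a second Rian probe set, 1427580_a_at, with 8.99, 7.55 and 8.65. It was not seen on 1428055_at, where knockout replicate 2 was highest at 6.97 and the change was 0.47 (adjusted p = 0.504). Which parts of Rian these probe sets read is not known here. Mirg, the microRNA host at the end of the cluster, differed by 0.21 (SE 0.10, adjusted p = 0.547). Dlk1, the paternally expressed membrane protein gene of the cluster, read 8.13, 7.93 and 7.40 in parental and 8.64, 7.51 and 7.64 in knockout samples, a change of 0.11 (SE 0.30, adjusted p = 0.948).

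**Figure D3:**
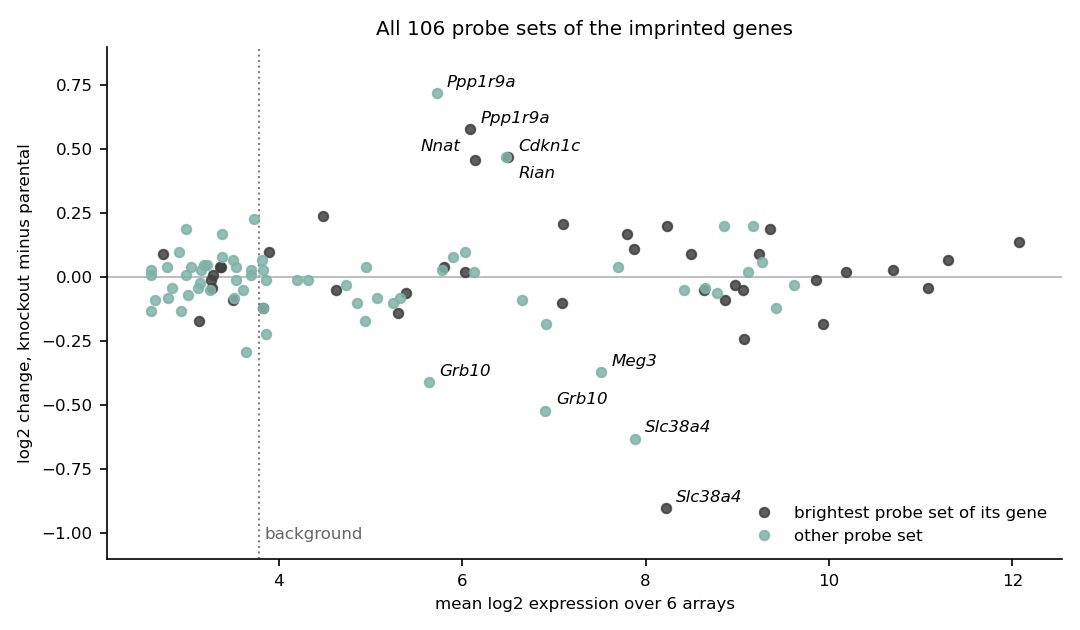
Log2 change (knockout minus parental, vertical axis) against the mean log2 expression over 6 arrays (horizontal axis) for all 106 probe sets of the 40 imprinted genes, with the background level of 3.79 as a dotted line. Genes are named where a probe set differed by at least 0.3; both Slc38a4 probe sets lie below 0 and the 2 brighter Ppp1r9a probe sets above it, while Meg3 and Rian are named for 1 of several probe sets each.

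The Snrpn cluster on chromosome 7 corresponds to the human region of the Prader-Willi and Angelman syndromes. Of its 6 measured genes 0 passed by limma, and 0 had an unadjusted p under 0.05, against 0.605% and 11% of all genes. Ube3a, a ubiquitin ligase gene whose maternal copy is active in neurons, read 9.86, 9.74 and 9.99 in parental and 9.88, 9.96 and 9.71 in knockout samples, with overlap, and its 6 probe sets differed by -0.10 to -0.01. The paternally expressed genes gave 0.02 for Snrpn, a splicing factor gene, 0.19 for the growth suppressor gene Ndn, 0.24 for Magel2 and 0.10 for Mkrn3, with adjusted p from 0.589 to 0.969. 4 probe sets annotated with both Snurf and Snrpn and above background differed by 0.07 to 0.12. Peg12, also paternally expressed, was at or below background (0.09). The differences of these 5 genes were above 0, as were those of 9090 of all 18193 genes, and none passed. That of Ndn was -0.12 with the feeder marker mean as a covariate.

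In the Peg3 cluster, Peg3, a paternally expressed zinc finger gene, read 8.97, 8.91 and 9.09 in parental and 8.80, 9.12 and 8.95 in knockout samples (change -0.03, SE 0.10, adjusted p = 0.954, limma). Usp29 and Zim1 were at or below background. Among genes at single loci, Mest, a hydrolase-fold gene, differed by 0.09, the zinc finger genes Plagl1 and Zdbf2 by -0.05 and 0.20, the G protein gene Gnas by 0.07 and Impact, a regulator of translational control, by -0.09. None of these 5 had an adjusted p under 0.555. Nap1l5 and Rasgrf1 were at or below background.

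Nnat and Dcn had the widest spread among these loci. Nnat, which encodes the small membrane protein neuronatin, read 5.85, 6.45 and 5.43 in parental and 6.35, 6.07 and 6.69 in knockout samples, and its change of 0.46 (SE 0.25, 95% interval -0.11 to 1.03, adjusted p = 0.627, limma) lay within this spread. Dcn, the proteoglycan gene decorin, is a strong fibroblast gene as well as an imprinted gene of placenta. It read 12.16, 12.40 and 11.43 in parental and 12.35, 11.74 and 12.33 in knockout samples, a change of 0.14 (SE 0.25, adjusted p = 0.910). Grb10, an adaptor that dampens growth factor receptor signalling, read 10.13, 9.95 and 9.98 in parental and 10.10, 9.68 and 9.74 in knockout samples on its brightest probe set (-0.18, adjusted p = 0.712). Its other probe sets gave -0.52 (SE 0.20, adjusted p = 0.479) and -0.41 (SE 0.13, adjusted p = 0.370), the latter without overlap between the groups, and knockout replicate 2 was the lowest sample on all 3.

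Across the 40 genes the groups did not overlap for 4 (10%), Slc38a4, Ppp1r9a, Cdkn1c and Sgce, against 16.3% of all genes, and on 13 of the 106 probe sets (12.3%) against 14.2%. Of the 32 above background, 3 had both no overlap and a change of 0.3 or more, against 689 of all 13347 such genes (5.16%). For 38 of 40 the 95% interval of the change lay within 2-fold in either direction, as it did for 99.1% of all genes; Slc38a4 and Nnat were the exceptions. By the copy known to be expressed, the 21 paternally expressed genes had a median change of 0.03 and the 18 maternally expressed genes -0.03. Of the paternally expressed genes 1 was called by limma and 1 (4.76%) had an unadjusted p under 0.05. Of the maternally expressed genes 0 were called and 2 (11.1%) had such a p. Over all genes 0.605% were called and 11% had an unadjusted p under 0.05. The typical size of a change, regardless of sign, was 0.09 (median of the 40), against 0.08 over all genes.

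Variation among samples of the same line is given next, as a description. Over the 32 imprinted genes above background the median SD within groups was 0.15, against 0.11 over all 13347 such genes, 0.21 over 32 feeder markers and 0.08 over 12 ES cell markers. Of the imprinted genes 5 exceeded 0.28, the 95th percentile of all genes, as did 8 feeder markers and 0 ES cell markers. The 5 were Rian (0.59), Dlk1 (0.51), Dcn (0.43), Nnat (0.42) and Kcnq1ot1 (0.32). For 18 of the 32 (56.2%), parental replicate 3 and knockout replicate 2 both held the lowest or both the highest value of their group, against 34.7% of all genes. Both arrays were the lowest of their group for 10 genes, Dcn, Dlk1, Nnat, Rian, Ndn, Gnas, Cd81, Cdkn1c, Ascl2 and Tssc4. Both were the highest for 8, Kcnq1ot1, Phlda2, Mest, Meg3, Peg3, Ube3a, Zdbf2 and Impact. Feeder markers did so in 19 of 32 (59.4%) and ES cell markers in 5 of 12. The part of feeder content in this order was not tested, and the order was not counted for parental replicate 2 with knockout replicate 3.

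**Figure D4:**
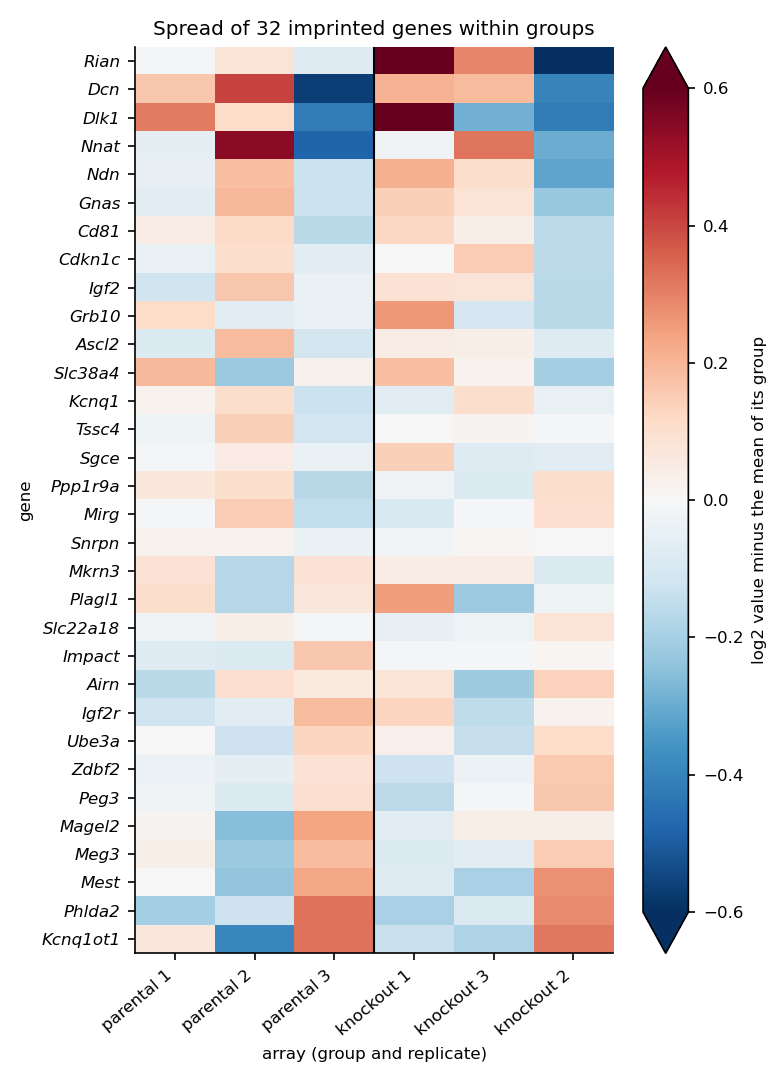
Log2 value of the 32 imprinted genes above background (rows) on each array (columns) minus the mean of its own group, as colour from -0.6 to 0.6, with values beyond that range at the end colours. Rows are ordered by the sum for parental replicate 3 and knockout replicate 2; Rian, Dcn and Dlk1 at the top are low in both arrays, Rian only slightly so in parental replicate 3, and Kcnq1ot1, Phlda2 and Mest at the bottom are high in both.

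Genes that set, keep or read imprints were looked up next, as 29 measured genes of a list of 31. Of these, 1 rose, 1 fell and 27 did not pass (limma), and of all genes 0.0934% were called higher and 0.511% lower. At an unadjusted p under 0.05 there were 7 (24.1%), 6 of them lower in knockout samples, against 11% of all genes. Dnmt3l, the cofactor that directs new methylation in germ cells, read 10.50, 10.42 and 10.40 in parental and 11.09, 11.24 and 10.94 in knockout samples, and rose by 0.65 (SE 0.09, adjusted p = 0.0318). Its only probe set ends in s_at, so it may read more than 1 transcript. Its call was lost without any parental replicate (adjusted p 0.115 to 0.130), without knockout replicate 1 (0.147) or 2 (0.0782), with the replicate block (0.122) and with the feeder covariate (0.247). Cbx5, which encodes heterochromatin protein HP1 alpha, read 9.18, 9.22 and 9.21 in parental and 8.68, 8.79 and 8.55 in knockout samples and fell by 0.53 on 1454636_at (adjusted p = 0.0461). Its other 4 probe sets differed by -0.19 to 0.09, and the call was lost without any single array (adjusted p 0.0598 to 0.179), with the block (0.186), with arrays centred on their medians (0.0513) and with the feeder covariate (0.475).

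Dnmt1, Zfp57 and Trim28, described above as keeping the mark, and the insulator protein Ctcf had close values in both groups. Dnmt1 differed by -0.08 (95% interval -0.32 to 0.15), Zfp57 by -0.11 (-0.37 to 0.15), Trim28 by 0.02 (-0.19 to 0.22) and Ctcf by 0.09 (-0.11 to 0.29), with adjusted p from 0.814 to 0.977 (limma). The new-methylation enzyme genes Dnmt3a and Dnmt3b differed by 0.06 and 0.17, and Zfp445, a further imprint-binding zinc finger gene, by 0.17 without overlap. Dppa3, a protein that protects maternal imprints in the zygote, read 8.18, 8.21 and 7.93 in parental and 7.75, 7.41 and 7.57 in knockout samples, without overlap, but did not pass (-0.53, SE 0.11, adjusted p = 0.143). The remaining 4 at an unadjusted p under 0.05 were Hells (-0.37, adjusted p = 0.324), a helicase needed for DNA methylation, the methylcytosine oxidase gene Tet1 (-0.34, 0.350), the Polycomb gene Ezh2 (-0.25, 0.410) and the histone H3 lysine 9 methyltransferase gene Setdb1 (-0.28, 0.421).

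A further list of 41 imprinted genes had 33 measured members. Of these 0 passed by limma, and the median change was 0.03. An unadjusted p under 0.05 was seen for 5 (15.2%, 3 higher and 2 lower), against 11% of all genes, and no overlap for 7 (21.2%), against 16.3%. Ddc, an amine-synthesis enzyme gene next to Grb10, read 8.45, 8.31 and 8.21 in parental and 7.90, 7.99 and 7.66 in knockout samples (-0.47, SE 0.11, adjusted p = 0.171). Sfmbt2, a paternally expressed Polycomb-related gene of the placenta, read 7.46, 7.16 and 7.03 in parental and 6.84, 6.66 and 6.80 in knockout samples (-0.45, SE 0.12, adjusted p = 0.242). The groups did not overlap for either gene. Slc38a4, Sfmbt2 and Gab1 are known as genes whose maternal copy is silenced through histone H3 lysine 27 methylation of the egg. Gab1, named after its value was seen, read 10.52, 10.21 and 10.51 in parental and 10.42, 10.67 and 10.32 in knockout samples, with overlap (0.06, adjusted p = 0.928). Among those above background the largest upward differences were 0.35 for Art5, near background (adjusted p = 0.222), 0.31 for Pon2 and 0.21 for Inpp5f (adjusted p = 0.379). The next downward one was -0.19 for Zim3. The other Art5 probe set, at or below background, gave -0.06. Calcr, also at or below background, differed by 0.32 without overlap (adjusted p = 0.297). Tfpi2, a protease inhibitor gene of the Peg10 region singled out after its values were seen, read 8.08 in parental replicate 2 and 8.16 in knockout replicate 3, and 5.87 to 6.30 in the other 4 samples.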

How the data were processed

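The deposited table holds 1 log2 value for each probe set on each array. The submitters' processing notes name RMA (robust multi-array average) as the authors' normalization; which program and chip definition they used is not given here, and the log2 scale follows from their range (2.12 to 13.98). The table held 45101 probe sets, of which 64 controls were left out. A moderated linear model with group as its single term (limma 3.58.1, R 4.3.3) gave two-sided p-values, adjusted by Benjamini-Hochberg over 45037 probe sets. In the platform annotation 34945 probe sets have 1 gene, 932 have several and 9160 have none, and no gene was named from a shared probe set. Since RMA makes array distributions alike, a general rise or fall of transcripts cannot be seen. No 2 arrays were identical, and the number of arrays limits the precision.

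The members and all lists were chosen with earlier results of these data known. Array values are given for members that passed, that had no overlap and a change of at least 0.3, or that were brightest in their cluster, for the H19 and Igf2 domain, and for others that varied or were singled out after their values were seen. In the regulator, further imprinted and Slc38 lists, the called genes, the 3 largest rises and falls above background and the main methylation factors are named, with others named as neighbours or for an unadjusted p under 0.05. Promoters came from RefSeq (GRCm38.p6). The fit was tested on simulated data with independent noise of the same SD for every probe set. That setting lacks the unequal spreads and the likeness between arrays of the real values. Alternatives were repeated quantile normalization, median centring, the replicate block, an intensity trend, no moderation, filters on dim or shared-ending probe sets, gene means, a feeder covariate and leaving out arrays.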

Additional observations from a re-analysis of the deposited data

How the results depend on the processing

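The setting without parental replicate 3 and knockout replicate 2 was chosen after seeing the data. The 181 probe sets called became 88 with the replicate block, 312 with an intensity trend and robust prior, 1 without moderation, 37 with the feeder covariate, 67 without parental replicate 3 and knockout replicate 2, and 70 to 112 without 1 array. The 1 imprinted gene and 1 imprinted probe set called became 2 and 3 with the intensity trend (Ppp1r9a was added), and 0 and 0 without moderation, with the feeder covariate and without both arrays. Without 1 array each was 0 to 1, the call of Slc38a4 remaining only without parental replicate 2 (adjusted p = 0.0372). Slc38a4 also kept its call with the block (adjusted p = 0.0259). The median change of 0.017 ranged from -0.018 to 0.04 without 1 array. Shared replicate numbers gave no pairing, since deviations of same-numbered arrays correlated at 0.172, -0.463 and -0.400. The highest correlations were 0.506 for parental replicate 2 with knockout replicate 3 and 0.497 for parental replicate 3 with knockout replicate 2. The replicate block does not follow these, and no fit blocked on them. The block ended the calls of Dnmt3l and Cbx5 and no other call named above. The ordinary test without moderation called none of the named genes (Dppa4, adjusted p = 0.0956).

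Some changes of 0.19 or less in size turned sign. With the feeder covariate these were 10 of 40, Ndn (-0.12), Dcn (-0.16), Dlk1 (-0.44), Igf2r (-0.01), Gnas (-0.17), Kcnq1ot1 (0.23), Igf2 (-0.15), Peg3 (0.14), Ube3a (0.03) and Usp29 (0.15). With probe sets lacking the x_at and s_at endings they were Gnas (-0.01) and Meg3 (-0.03). Without 1 array 2 to 7 of 40 turned sign, and the changes ranged from -0.03 to 0.12 for Igf2, -0.12 to 0.04 for Cd81, -0.10 to 0.11 for Meg3, -0.07 to 0.06 for Ube3a, -0.12 to 0.04 for Peg3 and -0.14 to 0.35 for Dcn. Slc38a4 (-1.01 to -0.80), Ppp1r9a (0.49 to 0.63), Cdkn1c (0.40 to 0.55) and Dppa4 (-1.69 to -1.59) kept their direction throughout. The cause of these shifts was not tested.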
